A study of Mus musculus with 4 samples.

Results

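The genes described here encode synaptotagmins, SNARE proteins and other parts of the machinery that releases vesicles, measured in mouse medulloblastoma and in normal cerebellum. They were chosen by name. A gene was a member if the platform annotation gave 1 of its probe sets a single symbol that was Syt, Stx, Vamp, Cplx, Rims, Stxbp or Rab3 followed by a digit or by a letter from a to d, one of Unc13a to Unc13d, Syn1 to Syn3 or Sv2a to Sv2c, Snap followed by a number, or Syp, Bsn or Pclo. This gave 85 members among 19938 genes, read by 94 probe sets, and a gene with several probe sets was represented by the one with the highest mean level. The set was proposed with earlier results of these data known. Read literally, the rule for Rab3 also takes Rab30 to Rab39, which are not Rab3 paralogues. These 12 genes are given apart from the other 73, and counts are given with and without them. Vamp2 is not a member, since its probe set carries 2 symbols, and it is not analysed here.

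Neurons store transmitter in synaptic vesicles that dock at the active zone, a scaffold built on Bassoon, Piccolo and RIM proteins. Munc13 proteins, encoded by the Unc13 genes, prime the vesicles by opening syntaxin, and a vesicle SNARE (synaptobrevin, the product of Vamp genes) then zips up with syntaxin and SNAP-25 to fuse the membranes. Synaptotagmins sense the calcium that triggers fusion, complexins bind the partly assembled SNARE complex, and Munc18 proteins (Stxbp genes) hold and guide syntaxin. Other syntaxins and Vamp proteins serve traffic between the Golgi, endosomes, lysosomes and the surface in all cells. In the cerebellum, granule cells release glutamate and Purkinje cells and interneurons release GABA through the neuronal set.

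The data were 4 Affymetrix Mouse Gene 1.0 ST arrays, 1 for each tissue sample. The control was cerebellum from the wild type, taken at 2 months of age. Of the 3 medulloblastomas, 2 arose in Math1-Cre;SmoM2 mice, one aged 1 month (the younger SmoM2 tumour) and one aged 2 months (the older SmoM2 tumour), in which Cre under control of Math1 (Atoh1) turns on an active form of Smoothened in the granule cell lineage, and the last arose at 5 months in a PtchLacZ/+ mouse, which carries a lacZ allele of the Hedgehog receptor gene Ptch1. All came from a mixed background of C57BL/6 and C3H strains. The labels do not say whether a sample held tissue of 1 animal or more. In the comparison with the cerebellum, p-values measure only the spread between the 3 tumours, which differ in genotype and age. Genotype, age, animal and technical differences are mixed in that spread. In the comparison of genotypes it comes from the 2 SmoM2 tumours, which differ in age. Fits with 1 tumour left out, given below, rest on the spread between 2 tumours. With 1 cerebellum the spread of normal tissue was not measured. Levels are log2 expression values as deposited, so that 1 unit is a 2-fold difference. Values of different genes on the array are not comparable as amounts of RNA, so levels are compared between arrays for 1 gene at a time. Sums over a marker list, used below as a description, weight its genes unequally.

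Defining markers fitted the labelled tissues. Atoh1, a transcription factor gene of granule cell precursors, measured 4.85 in normal tissue and 11.39 to 11.98 in the tumours, and all 5 progenitor markers rose. The lower quartile of all genes lay between 5.09 and 5.17 on the 4 arrays, and a level under it is not shown to be above background. In the marker counts, a gene fell or rose if it passed an adjusted p under 0.05 in limma, as for the members below. All 8 mature granule neuron and all 5 measured Purkinje cell markers lay below the cerebellum in every tumour. Some with large differences, such as Gabra6 (-5.57) and Calb1 (-5.11), did not pass. Mature granule neuron markers fell in 5 of 8 cases (median difference -4.38), Purkinje cell markers in 3 of 5 (median -4.62) and inhibitory interneuron markers in 4 of 5 (median -3.23). Their summed levels, on the log2 scale, were 14.89 in the cerebellum against 9.63 to 11.26 in the tumours for granule neurons, 14.20 against 8.29 to 10.53 for Purkinje cells and 11.85 against 9.52 to 10.23 for interneurons. In the tumours the interneuron sum was led by Lhx1, at 8.58 to 9.56, while the other 4 markers lay between 4.88 and 7.75. Pan-neuronal markers outside the vesicle fell in 4 of 5 cases (median -3.47), and immature granule neuron markers rose in 3 of 5 (median 1.17). Markers of astrocytes fell in 4 of 5 cases and of oligodendrocytes in 3 of 4, while those of microglia and macrophages rose in 4 of 5, with summed levels of 9.29 in the cerebellum and 12.01 to 12.75 in the tumours. In bulk tissue, fewer cells of a type and less RNA per cell cannot be told apart, and the part of these cell types in the differences below was not tested.

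Of the 85 members, 31 were lower and 1 was higher in the 3 tumours than in the cerebellum at an adjusted p under 0.05 (limma, Benjamini-Hochberg over all 19938 genes). Among all genes, 9.30% were lower and 6.70% higher by the same rule, 16.0% in either direction. The members lower in the tumours were 36.5% of the 85. Without Rab30 to Rab39, 28 of 73 were lower and 1 was higher. The median difference over the 85 members was -0.80, beside 0.04 over all genes, and their quartiles were -1.90 and 0.08, beside -0.29 and 0.32. All 3 tumours lay below the cerebellum for 53 members and above it for 17, beside 32.0% and 38.1% of all genes. Among the 31 that fell, 30 were at least 2-fold lower, 16 at least 4-fold, 7 at least 8-fold and 1, Unc13c, at least 16-fold. The shares of 96.8%, 51.6%, 22.6% and 3.23% stand beside 85.1%, 30.5%, 9.33% and 1.99% of the 1855 genes that fell in all. The count of 31 became 47 without the older SmoM2 tumour, 26 without the younger tumour and 20 without the PtchLacZ/+ tumour, and the count of 1 that rose became 6, 1 and 0. Over all genes the share that was lower moved too, to 16.7%, 6.48% and 4.70% in that order, and the share that was higher to 13.5%, 4.98% and 3.15%. The 16 further members lower without the older SmoM2 tumour were Syt4, Syt9, Syt14, Syt17, Stx4a, Stx7, Stx8, Stxbp3, Stxbp5l, Rims2, Bsn, Pclo, Rab3b, Sv2b, Rab33b and Rab39b, and the 5 further higher ones were Syt8, Stx6, Snap23, Stxbp4 and Stxbp6.

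**Figure D1:**
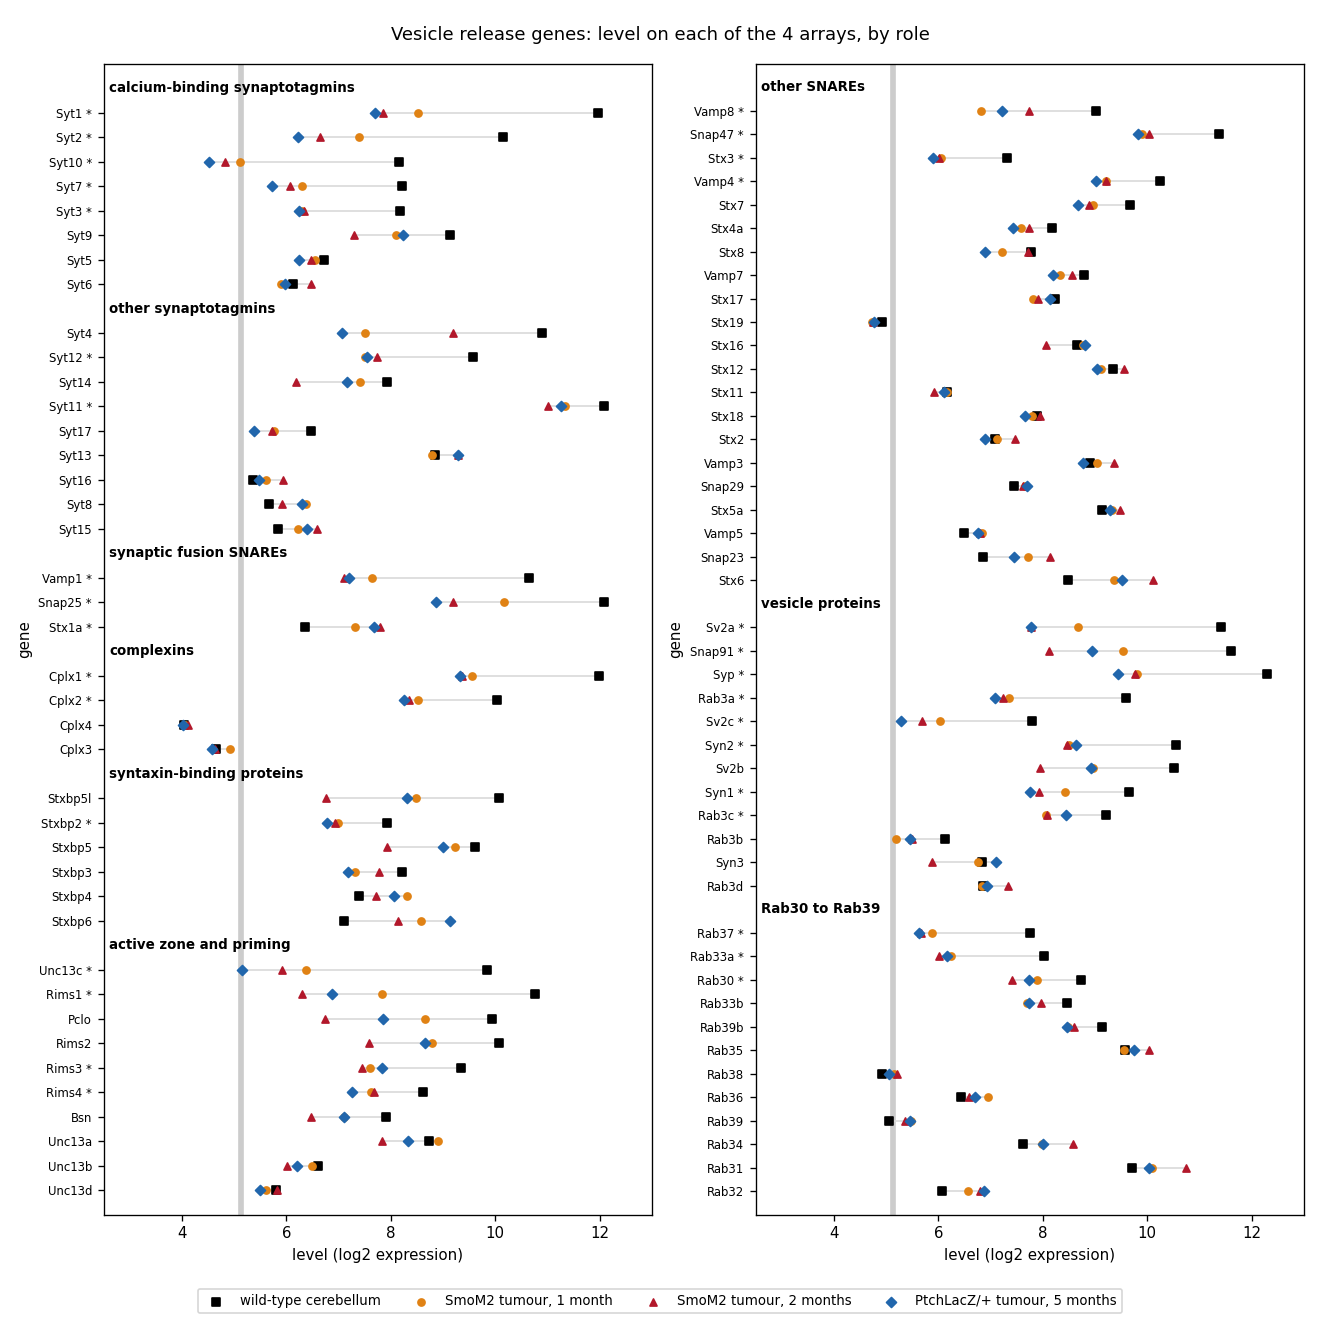
Level of each of the 85 genes (rows, grouped by role and ordered by difference) on each of the 4 arrays, as log2 expression on the horizontal axis. Black squares are the cerebellum and coloured symbols the 3 tumours; a star marks an adjusted p under 0.05 in tumours against cerebellum, and the grey band spans the lower quartiles of all genes, 5.09 to 5.17. The square lies to the right of all 3 tumours in 53 rows and to the left of them in 17.

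By role, the members that fell were spread as follows. Of 8 synaptotagmins that bind calcium, 5 fell, of 12 vesicle proteins 8, of 10 active zone and priming genes 4, of 4 complexins 2, of 9 other synaptotagmins 2 and of 6 syntaxin-binding proteins 1. Of the 3 SNAREs of synaptic fusion that were measured, 2 fell and 1 rose. Of the 21 SNAREs of other membrane traffic, 4 fell and 17 did not pass. The median differences were -2.04 for calcium-binding synaptotagmins, -1.97 for vesicle proteins and -1.41 for active zone and priming genes, against -0.11 for the other SNAREs. These are counts and medians, and the difference between roles was not tested.

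The fast calcium sensors of release were among the members with the largest differences. Syt1, the main sensor of synchronous release in forebrain neurons, was at 11.97 in the cerebellum, 8.52 in the younger and 7.85 in the older SmoM2 tumour, and 7.70 in the PtchLacZ/+ one. Syt2, its close relative with faster kinetics, typical of the hindbrain, was at 10.15, 7.38, 6.64 and 6.23 in the same order. For both genes the cerebellum stood far above the tumours, and the younger tumour was the highest of the 3. Syt1 fell by 3.95 ± 0.36 (adjusted p = 0.00562) and Syt2 fell by 3.40 ± 0.46 (adjusted p = 0.0120), where the value after ± is the standard error from limma. The falls correspond to levels 15.4-fold and 10.6-fold lower. Syt9, another synaptotagmin that binds calcium, was at 9.14 in the cerebellum and 8.09, 7.29 and 8.23 in the tumours. Its difference of -1.26 ± 0.41 did not pass (adjusted p = 0.110). It passed without the older SmoM2 tumour (-0.97 ± 0.16, adjusted p = 0.00843).

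Syt7, a slow, high-affinity sensor of asynchronous release, was at 8.21 in the cerebellum and at 6.30, 6.07 and 5.72 in the younger SmoM2, older SmoM2 and PtchLacZ/+ tumours. It fell by 2.18 ± 0.27 (adjusted p = 0.00999). Its relatives that form disulphide-bonded dimers include Syt3 and Syt10, which fell as well. Syt3 fell by 1.90 ± 0.17 (adjusted p = 0.00523), with all 3 tumours between 6.23 and 6.33 against 8.18. Syt10 fell by 3.34 ± 0.27 (adjusted p = 0.00476) from 8.16 to 5.12, 4.83 and 4.53, levels under the lower quartile of each tumour array, so the difference is a lower limit. Another member of that subclass, Syt6, stood at 6.13 in the cerebellum and 5.90, 6.47 and 5.97 in the tumours, which overlap it. Syt5 was at 6.72 in the cerebellum and between 6.24 and 6.55 in the tumours, and did not pass (adjusted p = 0.423).

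Among synaptotagmins whose domains do not bind calcium in the usual way, Syt12 and Syt11 fell and the rest did not pass. Syt12 fell by 1.99 ± 0.19 (adjusted p = 0.00609) from 9.58 to between 7.50 and 7.74. Syt11 went from 12.09 to 11.33, 11.01 and 11.26 and fell by 0.89 ± 0.20 (adjusted p = 0.0475), the smallest change among the 31. That call was lost without the younger SmoM2 tumour (adjusted p = 0.0848) or the PtchLacZ/+ tumour (adjusted p = 0.144). Syt4, an immediate early gene product of dense-core vesicles, separated the tumours most in this class. Its level was 10.89 in the cerebellum, 9.20 in the older SmoM2 tumour, 7.51 in the younger SmoM2 tumour and 7.07 in the PtchLacZ/+ tumour, so the older tumour was nearest to the cerebellum. The difference of -2.96 ± 0.84 did not pass (adjusted p = 0.0809) and passed without the older tumour (-3.60 ± 0.22, adjusted p = 0.000680). Positive differences that did not pass were measured for Syt15 (0.56), Syt8 (0.53), Syt16 (0.32) and Syt13 (0.29); without the older tumour Syt8 passed (0.67, adjusted p = 0.0253).

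The SNAREs of synaptic fusion went in both directions. Snap25, the plasma membrane SNARE of neurons, was at 12.09 in the cerebellum and at 10.16, 9.19 and 8.87 in the younger SmoM2, older SmoM2 and PtchLacZ/+ tumours. Vamp1, the synaptobrevin of hindbrain and spinal cord, was at 10.64 in the cerebellum and at 7.64, 7.11 and 7.20 in the same tumours. Stx1a, a syntaxin of the presynaptic membrane, was at 6.35 in the cerebellum and at 7.32, 7.79 and 7.68, so that every tumour lay above the normal tissue. Snap25 fell by 2.68 ± 0.52 (adjusted p = 0.0303) and Vamp1 fell by 3.33 ± 0.26 (adjusted p = 0.00446). Stx1a rose by 1.25 ± 0.24 (adjusted p = 0.0306), or 2.37-fold, and was the 1 member that rose. Both Snap25 and Stx1a missed the threshold without the PtchLacZ/+ tumour, with an adjusted p = 0.0508 and 0.101.

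**Figure D2:**
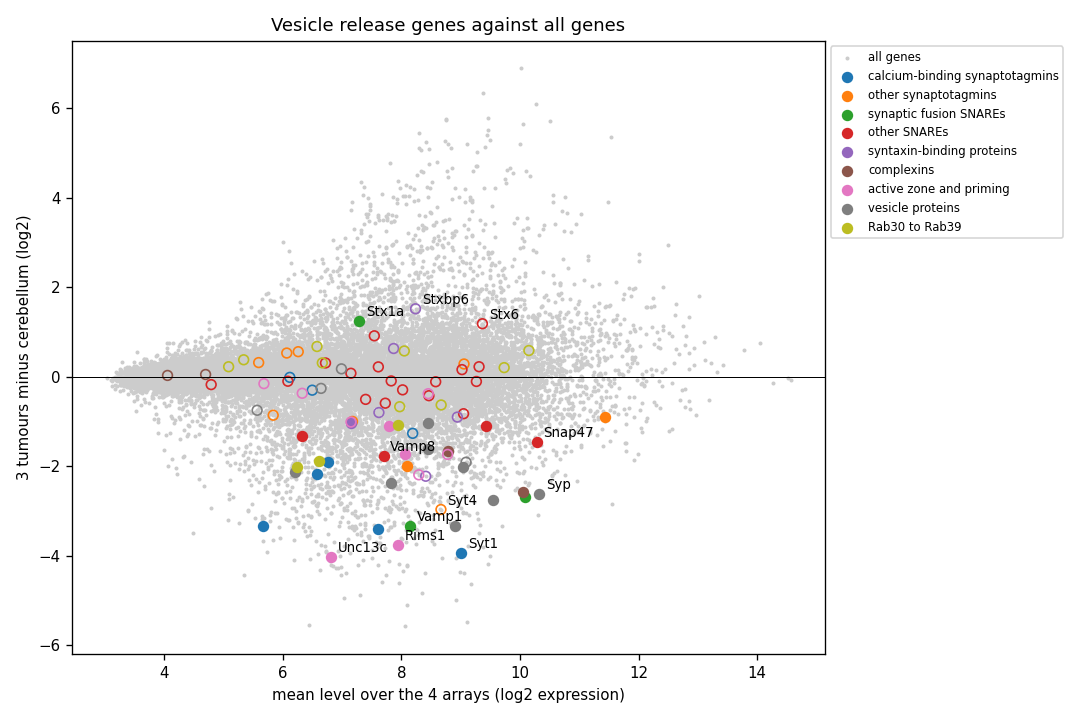
Difference between the mean of the 3 tumours and the cerebellum (vertical axis, log2) against the mean level over the 4 arrays (horizontal axis, log2 expression), with all 19938 genes in grey and the 85 genes coloured by role. Filled symbols passed an adjusted p under 0.05; 31 of them lie below 0 and 1, Stx1a, above it.

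Promoter sequence is shown for 4 members, all with a match to a motif named below. They are Stx1a, which rose, Unc13c and Rims1, which had the largest falls in the active zone class, and Syn1, a vesicle gene that fell. Each sequence is the stretch of 250 bases before the RefSeq start in assembly GRCm38.p6, written 5′ to 3′ on the strand of the gene. Each of these genes had 1 window. Capitals mark matches on either strand to the letters CCACCCA (the core of the site bound by Gli factors), TGACGTC (the core of the cyclic AMP response element) or CAGCTG (an E-box). The windows lie at chr5:135023232-135023481 on the + strand for Stx1a, chr9:73969038-73969287 on the - strand for Unc13c, chr1:22806159-22806408 on the - strand for Rims1 and chrX:20920919-20921168 on the - strand for Syn1.
Stx1a: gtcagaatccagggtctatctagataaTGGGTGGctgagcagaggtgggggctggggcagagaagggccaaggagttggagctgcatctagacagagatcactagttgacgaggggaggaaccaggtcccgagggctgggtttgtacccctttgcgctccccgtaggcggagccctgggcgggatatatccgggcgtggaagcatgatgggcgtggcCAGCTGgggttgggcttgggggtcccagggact
Unc13c: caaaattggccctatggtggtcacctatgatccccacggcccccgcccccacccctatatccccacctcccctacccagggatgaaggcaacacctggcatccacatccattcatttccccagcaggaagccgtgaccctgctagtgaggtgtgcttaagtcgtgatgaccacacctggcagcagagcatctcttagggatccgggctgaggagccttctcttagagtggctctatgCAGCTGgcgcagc
Rims1: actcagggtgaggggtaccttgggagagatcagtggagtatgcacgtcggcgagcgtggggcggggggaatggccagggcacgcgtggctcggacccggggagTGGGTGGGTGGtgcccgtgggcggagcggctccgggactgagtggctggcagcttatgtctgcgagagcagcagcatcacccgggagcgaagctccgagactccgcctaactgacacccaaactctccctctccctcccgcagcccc
Syn1: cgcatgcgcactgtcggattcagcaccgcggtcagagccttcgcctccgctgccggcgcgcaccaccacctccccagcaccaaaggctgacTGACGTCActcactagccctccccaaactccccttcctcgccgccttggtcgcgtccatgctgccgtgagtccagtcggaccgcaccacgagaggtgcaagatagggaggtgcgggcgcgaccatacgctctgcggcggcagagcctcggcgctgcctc

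Stx1a had a CCACCCA match that ended 216 bases before the start and a CAGCTG that ended 27 bases before it. Unc13c had a CAGCTG that ended 7 bases before its start, and Rims1 had 2 overlapping CCACCCA matches. In Syn1 the 2 TGACGTC matches were the same place read on both strands. Windows were found for 67 of the 85 members, 25 of them lower in the tumours. CCACCCA was present in 4 of the 67 windows (5.97%), beside 8.48% of 15563 genes of the array with a window. TGACGTC was present in 2 (2.99%), beside 3.70%, and CAGCTG in 15 (22.4%), beside 12.2%. Among members that fell, 1, 1 and 5 of 25 windows held the motifs in that order, and among those not called 2, 1 and 9 of 41. Most windows of the members that fell thus held no match, unlike the windows shown. Members' windows had a median GC content of 61.2%, beside 56.4%. A match describes these letters in this window and does not show a bound site.

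Of the complexins, which clamp and promote SNARE assembly, 2 fell and 2 were not shown to be above background. Cplx1 and Cplx2, the complexins of most central synapses, fell in all 3 tumours, while Cplx3 and Cplx4, the complexins of retinal ribbon synapses, lay under the lower quartile on every array. Cplx1 was at 11.99 in the cerebellum and at 9.55, 9.36 and 9.33 in the younger SmoM2, older SmoM2 and PtchLacZ/+ tumours. It fell by 2.58 ± 0.18 (adjusted p = 0.00405), with the tumours within 0.22 of each other. Cplx2 fell by 1.66 ± 0.19 (adjusted p = 0.00878) from 10.03 to between 8.25 and 8.53. Cplx3 was at 4.58 to 4.91 and Cplx4 at 4.02 to 4.11 over the 4 arrays.

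Among the syntaxin-binding genes, Stxbp2 (Munc18-2, used mostly outside neurons) fell by 1.03 ± 0.18 (adjusted p = 0.0236), with levels of 7.92 in the cerebellum and 6.78 to 6.98 in the tumours. Its call was lost without the younger SmoM2 or the PtchLacZ/+ tumour (adjusted p = 0.0579 and 0.103). The tomosyns, which compete with synaptobrevin for syntaxin, varied most among the tumours. Stxbp5l (tomosyn-2) was at 10.08 in the cerebellum, 8.49 in the younger SmoM2 tumour, 8.31 in the PtchLacZ/+ tumour and 6.76 in the older SmoM2 tumour. Its difference of -2.22 ± 0.72 did not pass (adjusted p = 0.111), and passed without the older tumour (-1.67 ± 0.16, adjusted p = 0.00184). Stxbp5 (tomosyn-1) was at 9.62 in the cerebellum and 9.23, 7.93 and 8.99 in the younger SmoM2, older SmoM2 and PtchLacZ/+ tumours (adjusted p = 0.354).

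Stxbp6 encodes amisyn, a protein with a SNARE-like motif and no membrane anchor. Its level was 7.10 in the cerebellum, 8.58 in the younger and 8.13 in the older SmoM2 tumour, and 9.14 in the PtchLacZ/+ tumour. All 3 tumours were above the cerebellum, by 1.52 ± 0.40 on average, the largest positive difference of any member, but the adjusted p was 0.0686. It passed when genes below the median level were dropped (adjusted p = 0.0414) and without the older SmoM2 tumour (1.76 ± 0.26, adjusted p = 0.00574). Stxbp4 was read by 2 probe sets whose differences were 0.63 and -0.16, neither past the threshold. The first passed without the older SmoM2 tumour (0.79, adjusted p = 0.0232).

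The active zone and priming genes held the largest fall of all members. Unc13c, which encodes the Munc13 isoform characteristic of cerebellar granule cells, was at 9.84 in the cerebellum and at 6.38, 5.91 and 5.14 in the younger SmoM2, older SmoM2 and PtchLacZ/+ tumours, the last just under the lower quartile of its array, so the difference is a lower limit. It fell by 4.03 ± 0.48 (adjusted p = 0.00948), or 16.3-fold. Its gene was read by 7 probe sets, fitted here also one by one. All 7 passed, with differences from -4.22 to -2.31 and adjusted p values from 0.00394 to 0.0172. In 5 of the 7 at least 1 tumour lay under the lower quartile, so those differences are lower limits. Probe sets of 1 gene share the same RNA, so they repeat the reading and not the sample.

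**Figure D3:**
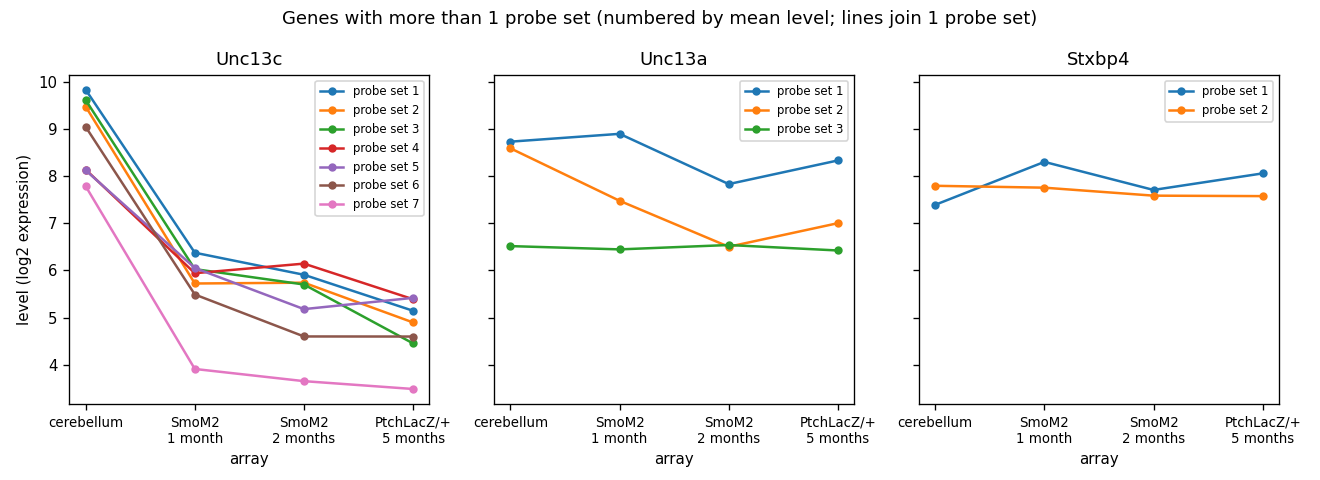
Levels (vertical axis, log2 expression) on the 4 arrays (horizontal axis) for each probe set of the 3 members with more than 1, numbered from the highest mean level. All 7 Unc13c lines drop from the cerebellum to the tumours, while the 3 of Unc13a range from a difference of -1.60 to one of -0.05 and the 2 of Stxbp4 lie on opposite sides of 0.

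Unc13a, the main Munc13 of excitatory synapses, gave no such picture. The probe set with the highest mean was at 8.73 in the cerebellum and at 8.90, 7.83 and 8.34 in the younger SmoM2, older SmoM2 and PtchLacZ/+ tumours, so the tumours lay on both sides, and its difference of -0.38 ± 0.42 did not pass (adjusted p = 0.650). The other 2 probe sets had differences of -1.60 (adjusted p = 0.0596) and -0.05 (adjusted p = 0.902). Unc13b differed by -0.37 and Unc13d, the isoform used in secretion by blood cells, by -0.15, and neither passed.

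The RIM genes bind vesicles, calcium channels and Munc13 at the active zone. Rims1 was at 10.76 in the cerebellum, 7.83 in the younger SmoM2 tumour, 6.88 in the PtchLacZ/+ tumour and 6.30 in the older SmoM2 tumour, and fell by 3.76 ± 0.59 (adjusted p = 0.0177), or 13.5-fold. Rims2 was at 10.08, 8.79, 8.66 and 7.58 in the same order and did not pass (-1.73 ± 0.51, adjusted p = 0.0894), though without the older tumour it did (-1.35 ± 0.16, adjusted p = 0.00300). In both genes the older SmoM2 tumour was the lowest of the 4 arrays. The short isoforms Rims3 and Rims4 lack the amino-terminal part. Rims3 fell by 1.73 ± 0.22 (adjusted p = 0.0103) and Rims4 fell by 1.10 ± 0.23 (adjusted p = 0.0382). Rims3 was at 9.35 in the cerebellum and 7.45 to 7.84 in the tumours, and Rims4 at 8.62 and 7.26 to 7.69. Rims4 missed the threshold without the younger SmoM2 tumour (adjusted p = 0.0728) and without the PtchLacZ/+ tumour (adjusted p = 0.103).

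The giant scaffold genes followed Rims2 in shape. Pclo (Piccolo) was at 9.93 in the cerebellum, 8.65 in the younger SmoM2 tumour, 7.85 in the PtchLacZ/+ tumour and 6.73 in the older SmoM2 tumour. Bsn (Bassoon) was at 7.91, 7.10, 7.10 and 6.48 in that order. Every tumour lay below the cerebellum for both, yet their differences of -2.19 ± 0.72 (adjusted p = 0.118) and -1.01 ± 0.31 (adjusted p = 0.0989) did not pass. Without the older tumour both passed, with an adjusted p = 0.0156 for Pclo and 0.0131 for Bsn, and Pclo passed without the younger tumour as well (adjusted p = 0.0362).

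Proteins of the vesicle itself fell in 8 of 12 cases. Syp (synaptophysin), an abundant membrane protein of small vesicles, was at 12.29 in the cerebellum and at 9.80, 9.76 and 9.45 in the younger SmoM2, older SmoM2 and PtchLacZ/+ tumours. Sv2a, a vesicle glycoprotein and the target of the drug levetiracetam, was at 11.41 and at 8.68, 7.78 and 7.77. Rab3a, the GTPase that tethers vesicles to RIM, was at 9.60 and at 7.35, 7.24 and 7.09. The groups did not overlap for any of these genes, and the tumours were closest together in Rab3a. Syp fell by 2.62 ± 0.22 (adjusted p = 0.00485), Sv2a fell by 3.34 ± 0.42 (adjusted p = 0.0101) and Rab3a fell by 2.37 ± 0.19 (adjusted p = 0.00461).

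The synapsins tie vesicles to each other in the reserve pool. Syn2 went from 10.56 in the cerebellum to 8.50, 8.47 and 8.63 and fell by 2.02 ± 0.17 (adjusted p = 0.00514). Syn1 went from 9.65 to 8.43, 7.93 and 7.76 and fell by 1.61 ± 0.30 (adjusted p = 0.0275), a call lost without the PtchLacZ/+ tumour (adjusted p = 0.0676). Syn3, the synapsin expressed early in neuron development, was at 6.84 in the cerebellum, 6.76 in the younger and 5.87 in the older SmoM2 tumour, and 7.10 in the PtchLacZ/+ tumour, on both sides of the normal level (adjusted p = 0.807). Snap91 encodes AP180, the clathrin assembly protein of vesicle retrieval, whose symbol matches the rule although it is no SNARE. It fell by 2.75 ± 0.55 (adjusted p = 0.0325) from 11.61 to 9.53, 8.11 and 8.94, and its adjusted p was 0.0709 without the PtchLacZ/+ tumour.

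Of the remaining vesicle genes, Sv2c fell by 2.13 ± 0.32 (adjusted p = 0.0159) and Rab3c fell by 1.02 ± 0.23 (adjusted p = 0.0421). Rab3c was one of the least stable calls, with an adjusted p of 0.0506 after quantile normalization, 0.0586 with a trended prior variance, 0.0991 without the younger SmoM2 tumour and 0.0695 without the PtchLacZ/+ tumour. Sv2b was at 10.52 in the cerebellum and 8.96, 7.95 and 8.93 in the tumours. It narrowly missed the threshold (-1.91 ± 0.45, adjusted p = 0.0516), and passed after quantile normalization (adjusted p = 0.0418), with a trended prior (adjusted p = 0.0389), when genes below the median level were dropped (adjusted p = 0.0288) and with the older SmoM2 tumour left out (adjusted p = 0.00176). Rab3b (-0.75) and Rab3d (0.18), the Rab3 forms of endocrine and exocrine cells, did not pass, though Rab3b did without the older tumour (adjusted p = 0.0232).

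Of the SNAREs of general membrane traffic, 17 of 21 did not pass. Those that fell were Snap47 (-1.46 ± 0.18, adjusted p = 0.0101), a SNAP-25 relative abundant in brain, Stx3 (-1.32 ± 0.17, adjusted p = 0.0111), the syntaxin of apical membranes and ribbon synapses, Vamp4 (-1.10 ± 0.18, adjusted p = 0.0199), which recycles between endosomes and the Golgi, and Vamp8 (-1.76 ± 0.38, adjusted p = 0.0391), which serves late endosomes and granule secretion. Vamp8 was at 9.02 in the cerebellum and at 6.82, 7.74 and 7.21 in the younger SmoM2, older SmoM2 and PtchLacZ/+ tumours. Without the PtchLacZ/+ tumour Stx3, Vamp4 and Vamp8 missed the threshold (adjusted p = 0.0541, 0.0871 and 0.0981), and Vamp4 also without the younger tumour (adjusted p = 0.0524). Stx7, the late endosomal syntaxin, was close to it (-0.83 ± 0.19, adjusted p = 0.0507) and passed with the older tumour left out (adjusted p = 0.0213).

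In the other direction Stx6, a syntaxin of the trans-Golgi network, was at 8.48 in the cerebellum and at 9.36, 10.11 and 9.52 in the tumours. The difference of 1.18 ± 0.33 was nearly that of Stx1a but did not pass (adjusted p = 0.0784), and passed without the older SmoM2 tumour (0.96 ± 0.16, adjusted p = 0.00919). Snap23, the SNAP-25 relative of non-neuronal cells, was at 6.86 in the cerebellum and at 7.73, 8.14 and 7.45, above it in every tumour (0.91 ± 0.30, adjusted p = 0.117), while Snap25 had fallen. Snap23 too passed without the older tumour (adjusted p = 0.0331). For Stx5a, the early Golgi syntaxin, and Snap29, the partner of Stx17 in autophagosome fusion, the differences were 0.22 and 0.22, and for Stx17, Stx16, Stx12 and Stx18 they lay between -0.29 and -0.09. Stx19 lay under the lower quartile on every array.

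Of the 12 genes from Rab30 to Rab39, 3 fell. Rab37, a Rab of secretory granules, fell by 2.02 ± 0.19 (adjusted p = 0.00609) and Rab33a fell by 1.88 ± 0.18 (adjusted p = 0.00634). Rab30, a Golgi Rab, fell by 1.07 ± 0.24 (adjusted p = 0.0455). The tumours were close together for Rab37 (5.63 to 5.89 against 7.75 in the cerebellum) and Rab33a (6.01 to 6.24 against 8.02). The call of Rab30 was lost with a trended prior variance (adjusted p = 0.0567), without the younger SmoM2 tumour (0.0579) and without the PtchLacZ/+ tumour (0.125). The other 9 ranged from -0.67 for Rab33b to 0.68 for Rab32, and all 3 tumours were above the cerebellum for 6 of the 12. Rab33b and Rab39b passed, lower, without the older tumour (adjusted p = 0.0167 and 0.0243).

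Genes that work with these members were read from 8 lists of presynaptic and SNARE genes, of which 100 of 104 entries were measured. In all, 33 of the 100 fell and 1 rose, beside 9.30% and 6.70% of all genes. Without the older SmoM2 tumour 46 fell and 10 rose, beside 16.7% and 13.5% of all genes. Of 15 genes of vesicle membrane and transmitter loading, 11 fell, including the vesicular glutamate transporter gene Slc17a7 (-4.34 ± 0.57, adjusted p = 0.0111) and the vesicular GABA transporter gene Slc32a1 (-3.31 ± 0.34, adjusted p = 0.00686). Slc17a6, another vesicular glutamate transporter gene, differed by 1.21 and Syngr2, the synaptogyrin of non-neuronal cells, by 0.89 without passing. Slc17a6 spread widely, with 7.77 in the cerebellum, 10.62 in the younger SmoM2 tumour, 7.12 in the older SmoM2 tumour and 9.22 in the PtchLacZ/+ tumour.

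Of 14 priming and calcium sensing accessory genes, 5 fell and 1 rose. The calcium sensor gene Doc2b fell by 2.98 ± 0.62 (adjusted p = 0.0369), whereas its paralogue Doc2a rose by 1.69 ± 0.33 (adjusted p = 0.0310), from 5.51 in the cerebellum to 6.84, 7.15 and 7.62 in the younger SmoM2, older SmoM2 and PtchLacZ/+ tumours. Cadps2 differed by -2.64 (adjusted p = 0.0760) and Rab3il1 by 0.86 (adjusted p = 0.0842). Of 19 genes of SNARE disassembly and vesicle endocytosis, 6 fell, among them Dnm1 (-3.48 ± 0.42, adjusted p = 0.00968), the neuronal dynamin, and Napb (-3.19 ± 0.18, adjusted p = 0.00335), the neuronal SNAP cofactor of NSF. The largest positive differences there, in Dnm2 (0.63), the ubiquitous dynamin, and Sh3gl1 (0.30), did not pass.

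Of 15 active zone scaffold and adhesion genes, 5 fell, with Nrxn3 at -3.13 ± 0.46 (adjusted p = 0.0149) and the liprin gene Ppfia4 at -2.87 ± 0.33 (adjusted p = 0.00817). Apba2 (0.87) and Cask (0.65) had positive differences that did not pass. Of 8 subunit genes of release calcium channels, 2 fell, Cacnb4 (-3.53 ± 0.34, adjusted p = 0.00616) and Cacna2d2 (-3.14 ± 0.27, adjusted p = 0.00514), and Cacna2d1 (1.39) and Cacnb2 (0.21) did not pass. Of 2 synuclein genes, Sncb fell by 2.96 ± 0.34 (adjusted p = 0.00875) and Sncg differed by -0.49. Of 10 synaptotagmin-like and extended synaptotagmin genes, Mctp1 (-2.87 ± 0.42, adjusted p = 0.0145) and Sytl2 (-1.96 ± 0.19, adjusted p = 0.00634) fell, and Esyt1 (0.76) did not pass. Sytl4 (0.32) did not pass either and lay under the lower quartile on all 4 arrays.

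The list of Golgi, endoplasmic reticulum and endosome SNAREs and their SM proteins had 1 gene that fell of 17 measured, Vti1b (-1.03 ± 0.21, adjusted p = 0.0345), and a median difference of -0.11. Vps45 differed by -1.02 (adjusted p = 0.0575), Bnip1 by 0.65 and Sec22c by 0.58. The median was thus the same as that of the 21 SNAREs of general traffic among the members, -0.11, and near the 0.04 of all genes.

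The PtchLacZ/+ tumour was next compared with the 2 SmoM2 tumours, to see whether the genes differed between the genetic models. No member passed, and no gene of all 19938 did (0%), in limma with 1 residual degree of freedom, and the other limma settings called 0 members too. At an unadjusted p under 0.05 in that fit there were 280 of the 19938 genes and 1 of the 85 members, a similar share. The member was Unc13c, which was 1.00 lower in the PtchLacZ/+ tumour than in the mean of the SmoM2 tumours. No member lay a full unit beyond the nearer SmoM2 tumour. The farthest was Unc13c, 0.76 below the older tumour, followed by Stxbp6, 0.56 above the younger tumour. The median difference over the members was -0.13, beside -0.03 over all genes. Genotype and age cannot be told apart here, and a comparison of this size does not show that the models act alike.

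Among the 31 members that fell, the PtchLacZ/+ tumour had the lowest level of the 3 tumours in 20 and the older SmoM2 tumour in 8, and the younger SmoM2 tumour had the highest in 22. Beside this, the summed level of granule neuron markers was 11.26 in the younger SmoM2, 10.98 in the older SmoM2 and 9.63 in the PtchLacZ/+ tumour, and that of Purkinje markers 10.53, 10.50 and 8.29. Sums of other neuronal lists were lowest in the older SmoM2 tumour. In the same order they were 10.23, 9.52 and 9.78 for interneurons and 11.32, 10.72 and 11.07 for pan-neuronal markers. For immature granule neurons they were 13.09, 12.23 and 12.94. The interneuron sum followed Lhx1 (9.56, 8.58 and 9.30), while Gad1, Gad2, Slc32a1 and Slc6a5 were lowest in the PtchLacZ/+ tumour. Of the pan-neuronal markers, Eno2 alone was lowest there. List medians were lowest in the PtchLacZ/+ tumour for interneurons (7.03, 6.40 and 6.27) and pan-neuronal markers (7.74, 7.49 and 6.47). That of immature granule neurons was lowest in the older SmoM2 tumour. The part of these cell types in the order of the tumours was not tested. The order was not counted over all genes that fell, so it is not shown to be particular to the members.

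**Figure D4:**
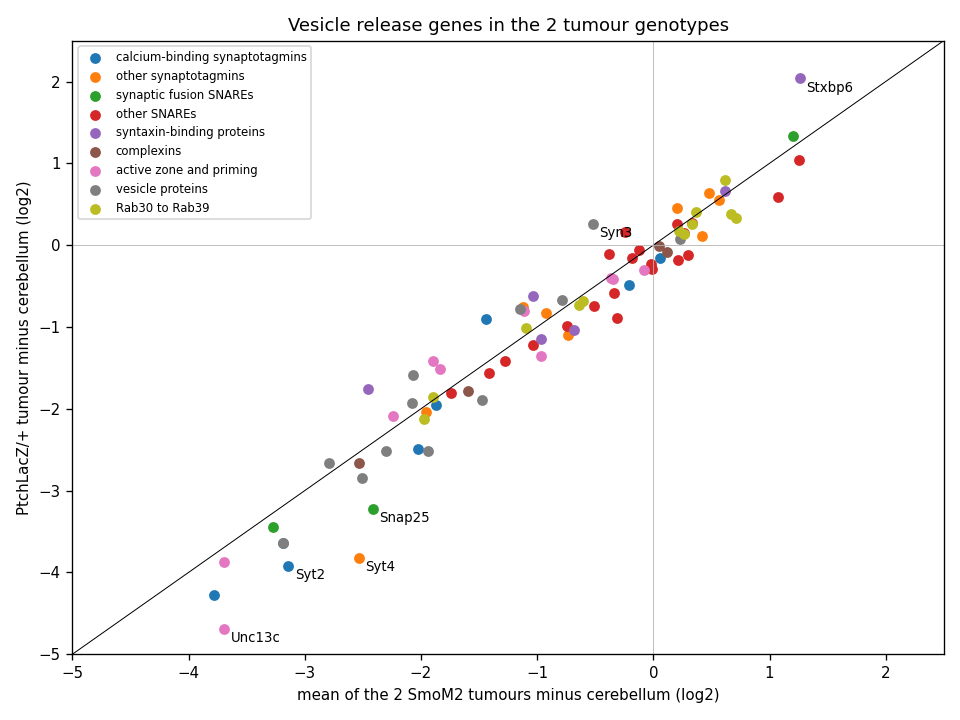
Difference from the cerebellum in the PtchLacZ/+ tumour (vertical axis, log2) against the mean difference of the 2 SmoM2 tumours (horizontal axis, log2) for the 85 genes, coloured by role. Both axes share the single cerebellum, so the alignment along the diagonal of equal values is partly built in; named genes lie at least 0.75 from it, with Unc13c 1.00 and Syt4 1.28 below it and Stxbp6 0.78 above it.

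The younger and older SmoM2 tumours, 1 array each, were compared by size alone. Of the 85 members, 9 were at least 2-fold higher at 1 month (10.6%) and 1 was at least 2-fold lower, beside 2.05% and 1.66% of all genes (3.71% in either direction). The 9 were the scaffold gene Pclo (by 1.92), the tomosyn gene Stxbp5l (1.73), Rims1 (1.54), Snap91 (1.42), Stxbp5 (1.30), Syt14 (1.22), Rims2 (1.20), Unc13a (1.07) and Sv2b (1.01). The 1 in the other direction was Syt4, which fell short of its 2-month level by 1.69 at 1 month. Unc13a was counted by its probe set with the highest mean. Its other 2 probe sets were at 7.48 and 6.45 at 1 month and at 6.50 and 6.54 at 2 months. The count of 9 became 8 with the mean of probe sets and 10 after quantile normalization. Over all members the median difference was 0.05, beside -0.08 over all genes, with member quartiles of -0.24 and 0.48. Of the other lists, the median 1-month minus 2-month difference was 1.37 for release calcium channel subunits, 0.58 for active zone scaffold genes, 0.21 for vesicle membrane and loading genes, 0.17 for disassembly and endocytosis genes, 0.09 for synucleins, 0.05 for priming accessory genes, -0.09 for synaptotagmin-like genes and -0.25 for Golgi and endoplasmic reticulum SNAREs. Among marker lists it ran from -0.46 for microglia and macrophages to 0.94 for immature granule neurons.

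Gene length was a property that the choice of members had not used. The 9 members higher at 1 month had a median length of 194 kb in RefSeq, the other 76 one of 31.4 kb. Over all genes, the 404 that were at least 2-fold higher at 1 month had a median of 65.3 kb and the other 19449 one of 17.5 kb. Of 12 members over 200 kb, 4 were at least 2-fold higher at 1 month, and of the 73 shorter ones 5 were. Among all genes with a length, 110 of 939 over 200 kb (11.7%) and 294 of 18914 shorter ones (1.55%) were. Across the 85 members the rank correlation between length and the 1-month minus 2-month difference was 0.44, and across 19853 genes it was 0.15. Among genes above the median level it was 0.54 for 58 members and 0.40 for 9955 genes. These are correlations across genes on the same 2 arrays, with no test, and long genes as a whole were shifted in the same direction. Syt1 (513 kb) and Unc13c (529 kb) differed by 0.66 and 0.47 between the 2 tumours.

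**Figure D5:**
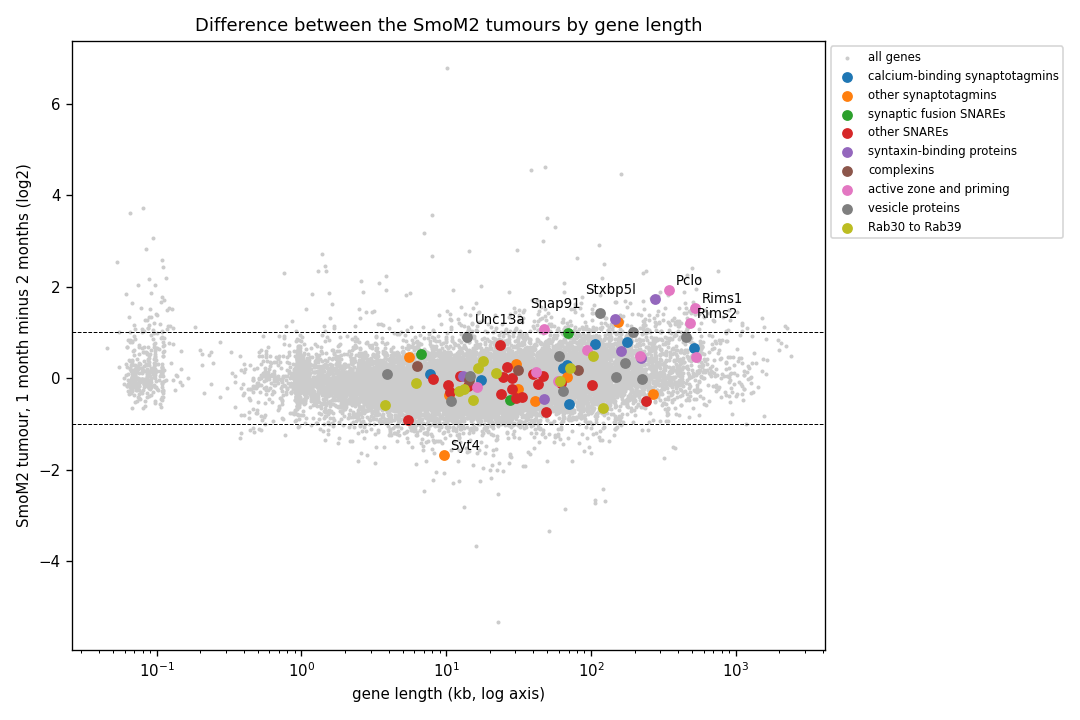
Difference between the SmoM2 tumours at 1 and 2 months (vertical axis, log2) against gene length in RefSeq (horizontal axis, kb, log scale), with all genes in grey and the 85 members coloured by role. Dashed lines mark a 2-fold difference; 9 members lie above the upper line, 4 of them over 200 kb, and Syt4 lies below the lower one.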

How the data were processed

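RNA extracted with RNeasy from 4 mouse tissue samples was hybridised to Affymetrix Mouse Gene 1.0 ST arrays, per the labels' protocols. The authors deposited 1 log2 value for each of 35557 probe sets and array, and the submitters' processing notes name Affymetrix Expression Console. Its version, the normalization and the genome build were not stated in what was used here. Values ran from 2.71 to 14.9, and gene medians of the arrays from 6.73 to 6.82, so no further normalization was applied. The platform annotation gave 21789 probe sets a single symbol, 1621 several and 12147 none, and 21698 of the single symbols matched RefSeq. Each of the 19938 genes was represented by its probe set with the highest mean level.

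Tumours were compared with the cerebellum, and the PtchLacZ/+ tumour with the SmoM2 tumours, in limma 3.58.1 (R 4.3.3) with Benjamini-Hochberg adjustment over all genes, after the code had been tested on simulated data. An exact permutation test of 3 arrays against 1 cannot go below p = 0.25 (two-sided), so none was used. The SmoM2 tumours at 1 and 2 months were compared by size, at 2-fold. With so few arrays, their number limits the precision. Any member could be named, with full statistics for those past the threshold and the main paralogues that were not; from each other list, up to 2 genes with the largest difference in either direction were named, and a few more chosen after their values were seen. Alternatives were quantile normalization, genes above the median level, the mean of probe sets, trended or robust prior variance, omission of Rab30 to Rab39 and of each tumour. With a tumour left out, the comparison with the cerebellum had 1 residual degree of freedom. Where that tumour was the farthest from the others, leaving it out can shrink the standard error. Calls gained in this way describe that dependence and are no separate support. The members and lists were chosen with earlier results of these data known. Promoters and gene lengths are from RefSeq, assembly GRCm38.p6.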

Additional observations from a re-analysis of the deposited data

Results flagged for a closer look

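For 4 members the PtchLacZ/+ tumour and both SmoM2 tumours lay on opposite sides of the cerebellum. Stx2, a syntaxin of epithelial and other surfaces, was 0.19 below the cerebellum in the PtchLacZ/+ tumour (difference -0.19) and 0.04 and 0.39 above it in the younger and older SmoM2 tumours. Vamp3 (cellubrevin, of recycling endosomes) had differences of -0.12, 0.14 and 0.46 in the same order, and Cplx4, which was under the lower quartile on every array, of -0.0142, 0.03 and 0.08. Syn3 went the other way, with 0.26 in the PtchLacZ/+ tumour and -0.08 and -0.97 in the SmoM2 tumours. None of these genes passed in limma, and the difference between the tumour models was not tested beyond that fit, which called no gene.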

How the results depend on the processing

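Of the 32 called members, 20 kept their call under every alternative in which they were tested. Leaving out 1 tumour gave 20 to 47 members lower and 0 to 6 higher, and 1 to 10 higher genes in the other lists. Among genes above the median level, 2 members rose and no gene of the other lists did, since Doc2a lies below that level. After quantile normalization 10 members were at least 2-fold higher and 2 at least 2-fold lower at 1 month. With the mean of probe sets 8 were at least 2-fold higher. The other alternatives left 25 to 31 members lower, of differing totals. The 25 were of 58 members above the median level (43.1%, beside 13.7% of all genes above it). Without Rab30 to Rab39 they were 28 of 73. The calls lost to settings other than leaving out a tumour were those of Rab30 and Rab3c, and calls were gained by Sv2b, Stxbp6 and Syt4. With a tumour left out, the sign turned for 5 uncalled genes, whose values ran from -0.050 to 0.12 for Cplx3, -0.24 to 0.14 for Stx16, -0.076 to 0.21 for Stx2, -0.52 to 0.094 for Syn3 and -0.19 to 0.094 for Syt6. It also turned for Stxbp4 (-0.16) in its other probe set, an alternative chosen after seeing the data. Beyond the samples left out or genes not tested, the cause was not tested. Between PtchLacZ/+ and SmoM2 tumours 0 members were called by limma under every alternative that could be fitted. Leaving out a SmoM2 tumour left that comparison with no residual degrees of freedom. No paired analysis was possible because the labels pair no samples, and the cerebellum and the PtchLacZ/+ tumour had 1 array each. Levels under the lower quartile, as in Cplx3, Cplx4 and Stx19 on all 4 arrays, limit what can be said of those genes.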
